A study of Mus musculus with 20 samples.

Results

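The genes that write and erase DNA methylation were followed through the m6A maps of chromatin-associated RNA from mouse embryonic stem cells. The 8 genes are Dnmt1, Uhrf1, Dnmt3a, Dnmt3b, Dnmt3l, Tet1, Tet2 and Tet3. They were chosen for their function, and a peak was counted for a gene when its summit lay in the gene body on the gene's own strand in the GENCODE M21 annotation (mm10). They are 8 of the 14601 genes that held such a peak in any library, and all 8 held one in at least 1 library. Their peaks merged into 81 of 62680 gene-body regions. A region is classed by the summit of its strongest peak, and a summit moves between libraries. In 30 of the 81 regions all summits were in exons, in 37 all were in introns, and the other 14 had summits on either side of an exon edge. This sorting is by summits and not by span. A region placed in an intron can still reach into an exon or cover one, as Uhrf1 regions 4, 7 and 9 do. A region said below to lie across an exon edge is one of the 14.

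N6-methyladenosine (m6A), an internal mark of messenger RNA, was enriched with an antibody from chromatin-bound RNA, a fraction that holds many nascent transcripts. The cells were C57BL/6 embryonic stem cells grown with LIF, the GSK3 inhibitor CHIR99021 and the MEK inhibitor PD0325901. The groups were Mettl3 KO1, Mettl3 KO2 and their shared Mettl3 control, and Ythdc1 cKO and the Ythdc1 control. Mettl3 is the catalytic subunit of the m6A methyltransferase, and Ythdc1 is the nuclear protein that binds m6A. Each group had 2 immunoprecipitated libraries, and the 10 input samples were not analysed here. How the deletions were made, whether KO1 and KO2 are single clones, how the conditional knockout was induced and what its control received are not stated in the labels. Replicates may be cultures or technical repeats, since no label tells, and a p-value below covers the spread of these libraries alone.

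Methyl groups are placed on cytosine by DNA methyltransferases. DNMT1 copies the pattern onto the new strand after replication, and UHRF1 binds hemimethylated DNA and brings DNMT1 to it. DNMT3A and DNMT3B methylate DNA de novo, and DNMT3L is a cofactor without catalytic activity of its own that is known from germ cells and embryonic stem cells. The enzymes TET1, TET2 and TET3 oxidise methylcytosine, which opens the way to its removal. Embryonic stem cells grown with these inhibitors are known for low DNA methylation.

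The sequences that follow are those at the exonic regions on which the results turn, read from GENCODE M21 transcripts (GRCm38, the assembly of mm10) and written 5′ to 3′ as DNA. The capitals mark GGAC, the core of the m6A consensus, at the site nearest to the summit of the region's strongest peak. The first set holds the exonic region of highest median fold enrichment in each of Dnmt3a, Dnmt3b and Dnmt3l, followed by a region of Dnmt1 at the edge of coding exon 23 and one of Uhrf1 in the 3′ UTR that had no peak in the cKO libraries and peaks in both Ythdc1 controls.
Dnmt3a region 8, chr12:3907737-3907764, plus strand: cttgtgtgtaagGGACatgggggcaaac
Dnmt3b region 1, chr2:153649532-153649559, plus strand: cctgagcgccgcGGACtagcccgggtgg
Dnmt3l region 1, chr10:78050041-78050068, plus strand: ccgccatcccttGGACgcagacccttct
Dnmt1 region 9, chr9:20920125-20920152, minus strand: tttggtggcactGGACggagtaagcagg
Uhrf1 region 11, chr17:56322999-56323026, plus strand: cctcaggccaggGGACcagctgggctga

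These GGAC sites lay 6 nt from the summit in Dnmt3a, 46 nt in Dnmt3b, 20 nt in Dnmt3l, 30 nt in Dnmt1 and 24 nt in Uhrf1, counted along the spliced transcript. In Dnmt1 the site was in the neighbouring exon. In each TET gene, the strongest region by median fold among those with all summits in exons had no GGAC within 50 nt of the summit, and the second set gives the nearest one inside each region.
Tet3 region 5, chr6:83368583-83368610, minus strand: gcctggaggaggGGACagctgaggagcc
Tet2 region 14, chr3:133466695-133466722, minus strand: ccagaccaccaaGGACgacctgtgagca
Tet1 region 18, chr10:62812955-62812982, minus strand: tcagcaccccgaGGACgataacttgcct

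The distance to the summit was 67 nt in Tet3, 323 nt in Tet2 and 104 nt in Tet1. The strongest exonic regions of Dnmt1 (region 1) and Uhrf1 (region 2) held no GGAC in their exonic part. Of the 33 regions of the 8 genes whose strongest summit was exonic, 17 had GGAC within 50 nt of the summit, 51.5% with a 95% Wilson interval of 35.2% to 67.5% that covers counting error only. Among all 25132 exonic regions the share was 48.5%. The longer GGACT, which contains GGAC, was found at 27.3% of the regions of the 8 genes and at 17.1% of all regions, and GTCC, the same core on the other strand, at 45.5% and 27.4%. Within 100 nt the order of the GGAC shares turned round, with 60.6% in the 8 genes and 70.7% in all regions, while GGACT was at 33.3% and 29.2% and GTCC at 57.6% and 47.2%. Only the letters of the spliced transcript were searched, so the 48 intron regions are not part of these shares.

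Each library had its own peak list, with 40959 to 46735 peaks on the chromosomes used. Read depth is not known from the lists, so a region without a peak is one where none was called at that depth. Mettl3 itself held no peak in either KO1 library, 1 peak in each KO2 library and 1 in each Mettl3 control library, and Ythdc1 held 7 and 6 peaks in the cKO libraries against 7 and 7 in the Ythdc1 controls. Peaks say nothing of transcript levels, so these counts do not check the genotypes. All 10 embryonic stem cell markers examined held a peak, and 9 of them held one in every library. The exception was Dppa5a, which had 1 peak in each Ythdc1 control library and none elsewhere. The 10 together held 34 and 37 peaks in KO1 and 33 and 31 in KO2, against 27 and 31 in the Mettl3 controls, and 28 and 28 in the cKO against 35 and 34 in the Ythdc1 controls. Of 8 fibroblast markers, 4 held a peak (Col1a1, Col1a2, Pdgfrb and Fn1), and Col3a1, Lum, Dcn and Thy1 had none in any library. The 8 together held 3 to 6 peaks in the Mettl3 knockout libraries against 6 and 8 in the Mettl3 controls, and 8 and 6 in the cKO against 10 and 10 in the Ythdc1 controls. Col1a2 had a peak in both Mettl3 control libraries alone. Gata4 and Fgf5 had 1 peak in each cKO library and none in the Ythdc1 controls, and the mesoderm gene T had 1 in each KO2 library and none elsewhere. The part of these markers in the results was not tested. Gene bodies held 67.7% and 68.3% of the peaks of the cKO libraries, against 81% and 81.3% in the Ythdc1 controls. They held 76.9% to 85.1% in the Mettl3 knockout libraries, against 74.9% and 74.7% in the Mettl3 controls.

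The 8 genes held 41 and 44 peaks in KO1 and 44 and 49 in KO2, against 34 and 36 in the Mettl3 controls. All 4 knockout libraries were above both controls. They held 35 and 34 peaks in the cKO and 51 and 50 in the Ythdc1 controls, so the cKO libraries were lower. The genes were far from alike. The TET genes held 26 to 30 of the peaks in the Mettl3 knockout libraries against 23 and 23 in the controls, and 24 and 23 in the cKO against 22 and 24 in the Ythdc1 controls. They also held 18 of the 22 regions that had a peak in all 10 libraries (9 in Tet1, 6 in Tet2 and 3 in Tet3). Uhrf1 had 2 such regions, Dnmt3a and Dnmt3b had 1 each, and Dnmt1 and Dnmt3l had none. Of the regions of the 8 genes 27.2% had a peak in every library, against 22.1% of all gene-body regions. A single library supported 25.9% of the regions of the 8 genes and 20.8% of all gene-body regions.

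**Figure D1:**
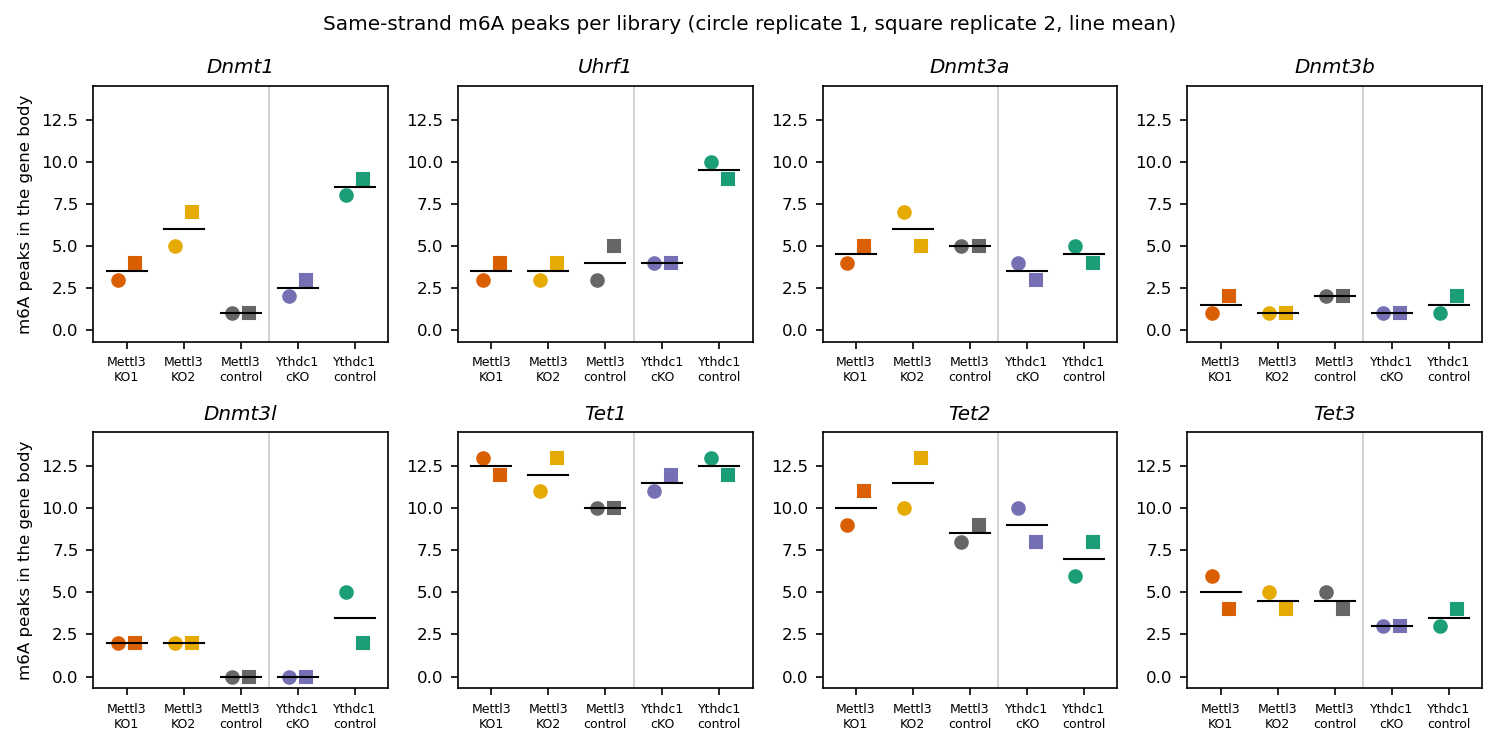
Number of same-strand m6A peaks in the gene body (vertical axis) of each gene in each library, by group; circles are replicate 1, squares replicate 2 and lines group means. Dnmt1, with 2 and 3 peaks in the cKO against 8 and 9 in the Ythdc1 controls, and Uhrf1, with 4 and 4 against 10 and 9, show the widest gaps.

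Fold enrichment, the authors' value for the height of a peak over background within its own library, separated the genes as well. To place a peak within its list, its fold was given as a percentile of all peaks of that library. The median peak stood at percentile 78.8 in Tet3 and 56.3 in Dnmt3a, with 44.9 in Dnmt3l, 36.7 in Tet2, 29.8 in Tet1, 15.5 in Uhrf1, 9.61 in Dnmt1 and 7.04 in Dnmt3b. The genes of maintenance methylation and Dnmt3b thus held mostly weak peaks. In Dnmt1 69.8% of the peaks lay in the lowest 20% of their list, in Uhrf1 61.2% and in Dnmt3b 78.6%, against 10.6% in Dnmt3a and 9.76% in Tet3.

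**Figure D2:**
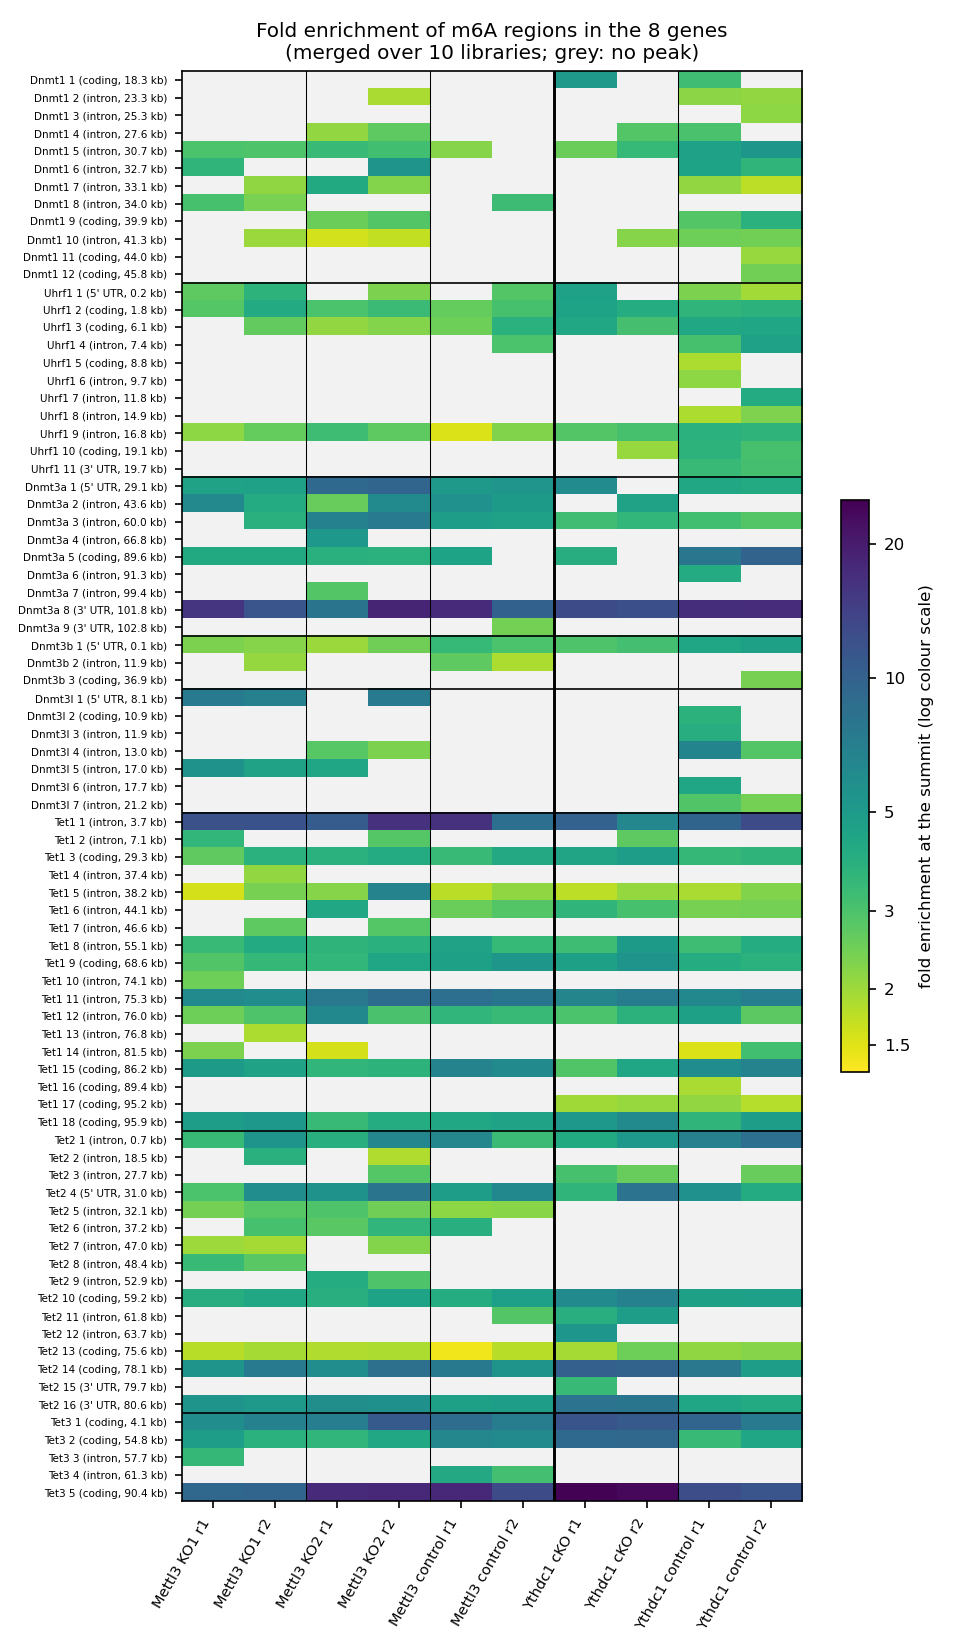
Fold enrichment of the 81 regions (rows, numbered 5′ to 3′ in each gene, with class and distance of the strongest peak's summit from the 5′ end of the gene body in kb) in the 10 libraries (columns), on a log colour scale; grey cells have no peak. Rows filled across all 10 columns are mostly those of Tet1, Tet2 and Tet3, and the rows of Dnmt1, Uhrf1 and Dnmt3l are filled in patches.

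The Mettl3 comparison asks which m6A regions disappear without the methyltransferase. Both Mettl3 controls had a peak at 30 regions of the 8 genes, and 25 of these had a peak in all 4 knockout libraries and 1 had none in any. Lost regions were 3.33% of these 30, against 8.96% of the gene-body regions of all genes, and kept regions were 83.3% against 64.8%. Dnmt1 and Dnmt3l had no region in both controls, so these rates do not cover them. Tet1 held 10 of the 30, Tet2 7 and Tet3 4, and of these 9, 7 and 3 were kept. A region was called gained when all 4 knockout libraries and no control had it; no region of the 8 genes was, of the 27 that all 4 knockout libraries had, against 4.31% of such gene-body regions over all genes. The TET regions in both controls that had all summits in exons, and region 8 in the 3′ UTR of Dnmt3a, kept their peaks in the knockouts. The call of a lost region is loose, since with the lists shortened to equal length the count was 0 and without Mettl3 control replicate 1 it was 4. It was 2 without KO1 replicate 2 and 2 without KO2 replicate 1. The gained count of 0 was 2 without KO1 replicate 1, KO2 replicate 1 or Mettl3 control replicate 1, and 1 without KO2 replicate 2. Here and below, region counts at such other settings were not set against all gene-body regions at the same setting.

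The lost region was in an intron of Tet3 (region 4, chromosome 6, 83397697 to 83398081, minus strand), with no peak in the 4 knockout libraries against peaks of 4.20-fold and 3.15-fold in the Mettl3 controls. It also had no peak in the 4 Ythdc1 libraries. The KO1 line lost 1 more region, region 6 of Tet1 (chromosome 10, 62864834 to 62864994, minus strand), which lies across an exon edge and had its summit in the coding exon in both Mettl3 controls, so that 2 of 30 regions were lost there (6.67%, against 16.8% of all gene-body regions). That region had 1 peak in KO2, of 4.26-fold, against 2.52-fold and 2.86-fold in the Mettl3 controls. The KO2 line lost an intron region of Dnmt3b (region 2, chromosome 2, 153661284 to 153661440, plus strand) besides that of Tet3, again 2 of 30 (6.67%, against 14.6%). The lost count was 5 in KO1 without KO1 replicate 2 or Mettl3 control replicate 1, and 6 in KO2 without that control. The peaks of the Dnmt3b region were weak, 2.08-fold in KO1 replicate 2 against 2.70-fold and 1.88-fold in the Mettl3 controls.

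Dnmt1 and Dnmt3l, a maintenance enzyme and a de novo cofactor, held more peaks in every knockout library than in either control. So did Tet1, which is described further below. Dnmt1 had 3 and 4 peaks in KO1 and 5 and 7 in KO2, against 1 and 1 in the Mettl3 controls, so no knockout library was as low as a control. The means were 4.75 ± 1.71 in the knockouts (SD, n = 4) and 1 ± 0 in the controls (SD, n = 2), a difference of 3.75 with an exact two-sided permutation p of 0.133. Adjusted over 13475 genes by Benjamini-Hochberg, this exact permutation p became 0.897. With 15 possible splits of these libraries the smallest p is 0.0667, so no gene could pass 0.05. Of all genes 5.02% had more peaks in every knockout library than in any control and 8.58% had fewer, a pattern seen in none of the 8 genes; 112 genes had a difference at least as large as that of Dnmt1. The separation held on the whole lists but not among peaks of at least 3-fold, where Dnmt1 had 3 and 0 peaks in KO1 and 2 and 2 in KO2, against 0 and 1 in the controls.

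The peaks of Dnmt1 in the knockouts lay 23.3 to 41.3 kb from the 5′ end of the gene body, which is 52.7 kb long. The most widely found was region 5 (chromosome 9, 20929080 to 20929261, minus strand), with 8 of its 9 summits in an intron. It had a peak in 9 of 10 libraries, of 3.00-fold and 2.92-fold in KO1, 3.42-fold and 3.19-fold in KO2, and 2.22-fold in Mettl3 control replicate 1. KO2 gained 4 regions of Dnmt1 relative to the controls. They were region 4, in an intron (20932176 to 20932337), and regions 7 (20926546 to 20926964), 9 (20919922 to 20920291) and 10 (20918028 to 20918669), which lie across exon edges. Region 9 had its summit in coding exon 23 in Ythdc1 control replicate 2 and just outside that exon in the other libraries with a peak. The peaks of region 9 were 2.53-fold and 2.87-fold in KO2, and it had none in KO1 or the Mettl3 controls. None of the 4 had peaks in both KO1 libraries, and region 10 had the weakest, at 1.60-fold and 1.71-fold in KO2.

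Dnmt3l had 2 peaks in each of the 4 knockout libraries and none in either Mettl3 control. The difference of 2 had an exact permutation p of 0.0667, the smallest possible, and an adjusted p of 0.632. At 2 ± 0 against 0 ± 0 (SD, n = 4 and n = 2) the groups did not overlap, and 573 genes had a difference at least as large. The peaks were not the same in the lines. Region 1, in the 5′ UTR (chromosome 10, 78049973 to 78050165, plus strand), held peaks of 7.35-fold and 6.86-fold in KO1 and 7.41-fold in KO2 replicate 2. Its summit was 76 nt downstream of the start of the transcript Dnmt3l-208. Region 5, in an intron (78058798 to 78059026), had 5.47-fold and 4.55-fold peaks in KO1 and 4.35-fold in KO2 replicate 1. Both were gained in KO1 but were present in 1 of the 2 KO2 libraries, and KO2 gained region 4 (78054861 to 78055044) with 2.81-fold and 2.34-fold peaks.

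Among the genes of demethylation, Tet1 had 13 and 12 peaks in KO1 and 11 and 13 in KO2, against 10 and 10 in the Mettl3 controls. On the whole lists every knockout library was thus above both controls, as in Dnmt1 and Dnmt3l. The difference of 2.25 had an exact permutation p of 0.133 (adjusted 0.897), and the groups overlapped among peaks of at least 3-fold and at equal list length. Tet2 had 9 and 11 peaks in KO1 and 10 and 13 in KO2, against 8 and 9 in the controls, where the groups touched at 9. A region can hold more than 1 peak in a library. Region 1 of Tet2 held 2 in Mettl3 control replicate 2, and region 2 of Tet3 held 1 to 3. At equal list length Tet2 had 9 and 11 peaks in KO1 and 9 and 12 in KO2, against 7 and 8, without overlap. No share over all genes was taken at that setting. KO1 gained intron regions 7 (chromosome 3, 133498121 to 133498302, minus strand) and 8 (133496603 to 133496777) of Tet2, with peaks of 1.93-fold to 3.38-fold. KO2 gained intron region 9 (133492142 to 133492349), of 4.0-fold and 2.92-fold. In all, KO1 gained 4 regions of the 33 that it held in both libraries (12.1%, against 12.9% of all gene-body regions) and KO2 gained 6 of 36 (16.7%, against 12.9%). The counts were 10 and 9 in KO1 without its replicate 1 or 2, and 14 and 10 in KO2 without its replicate 1 or 2, with no share over all regions at these looser calls. Tet3, Dnmt3a, Dnmt3b and Uhrf1 overlapped between knockouts and controls. Tet3 had 6, 4, 5 and 4 peaks in the knockouts against 5 and 4, and Dnmt3a had 4, 5, 7 and 5 against 5 and 5. Uhrf1 had 3, 4, 3 and 4 peaks against 3 and 5, and Dnmt3b had 1, 2, 1 and 1 against 2 and 2.

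By the place of each summit, intron peaks of the 8 genes numbered 20 and 25 in KO1 and 23 and 26 in KO2, against 15 and 15 in the Mettl3 controls. Their coding exon peaks numbered 13 and 13 in KO1 and 16 and 17 in KO2, against 14 and 14. Regions with all summits in introns held 16 and 18 peaks in KO1 and 15 and 16 in KO2, against 11 and 12 in the controls. Regions across an exon edge held 6 and 7 in KO1 and 10 and 12 in KO2, against 6 and 7, and regions with all summits in exons held 19, 19, 19 and 21 against 17 and 17. As shares of the peaks of the 8 genes, introns held 48.8% and 56.8% in KO1 and 52.3% and 53.1% in KO2, against 44.1% and 41.7% in the Mettl3 controls. Over all genes, introns held 58.7% and 58.5% of the gene-body peaks in KO1 and 50.8% and 50.1% in KO2, against 50.5% and 50.8% in the Mettl3 controls.

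The Ythdc1 comparison asks how the m6A regions of nuclear RNA change without this reader. Dnmt1, Uhrf1 and Dnmt3l held fewer peaks in the cKO libraries. Dnmt1 had 2 and 3 peaks in the cKO against 8 and 9 in the Ythdc1 controls, and Uhrf1 had 4 and 4 against 10 and 9. Dnmt3l had none in either cKO library against 5 and 2. In all 3 genes both cKO libraries were below both controls.

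The differences were −6 for Dnmt1 (2.5 ± 0.707 against 8.5 ± 0.707), −5.5 for Uhrf1 (4 ± 0 against 9.5 ± 0.707) and −3.5 for Dnmt3l (0 ± 0 against 3.5 ± 2.12; SD, n = 2 each). An exact permutation test of 2 against 2 libraries has 6 splits and gives 0.333 at the least, which was the p of all 3 genes (adjusted 0.885). Fewer peaks in every cKO library than in any control were seen in 25.2% of the 13186 genes with a peak in these libraries, so the lack of overlap is common. A difference as low as that of Dnmt1 was seen in 87 genes, as low as that of Uhrf1 in 114 and as low as that of Dnmt3l in 421. Among peaks of at least 3-fold, Uhrf1 had 3 and 3 peaks in the cKO against 6 and 7, and Dnmt1 had 1 and 1 against 4 and 3. Dnmt3l had 0 and 0 against 4 and 0, so that its groups then touched.

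**Figure D3:**
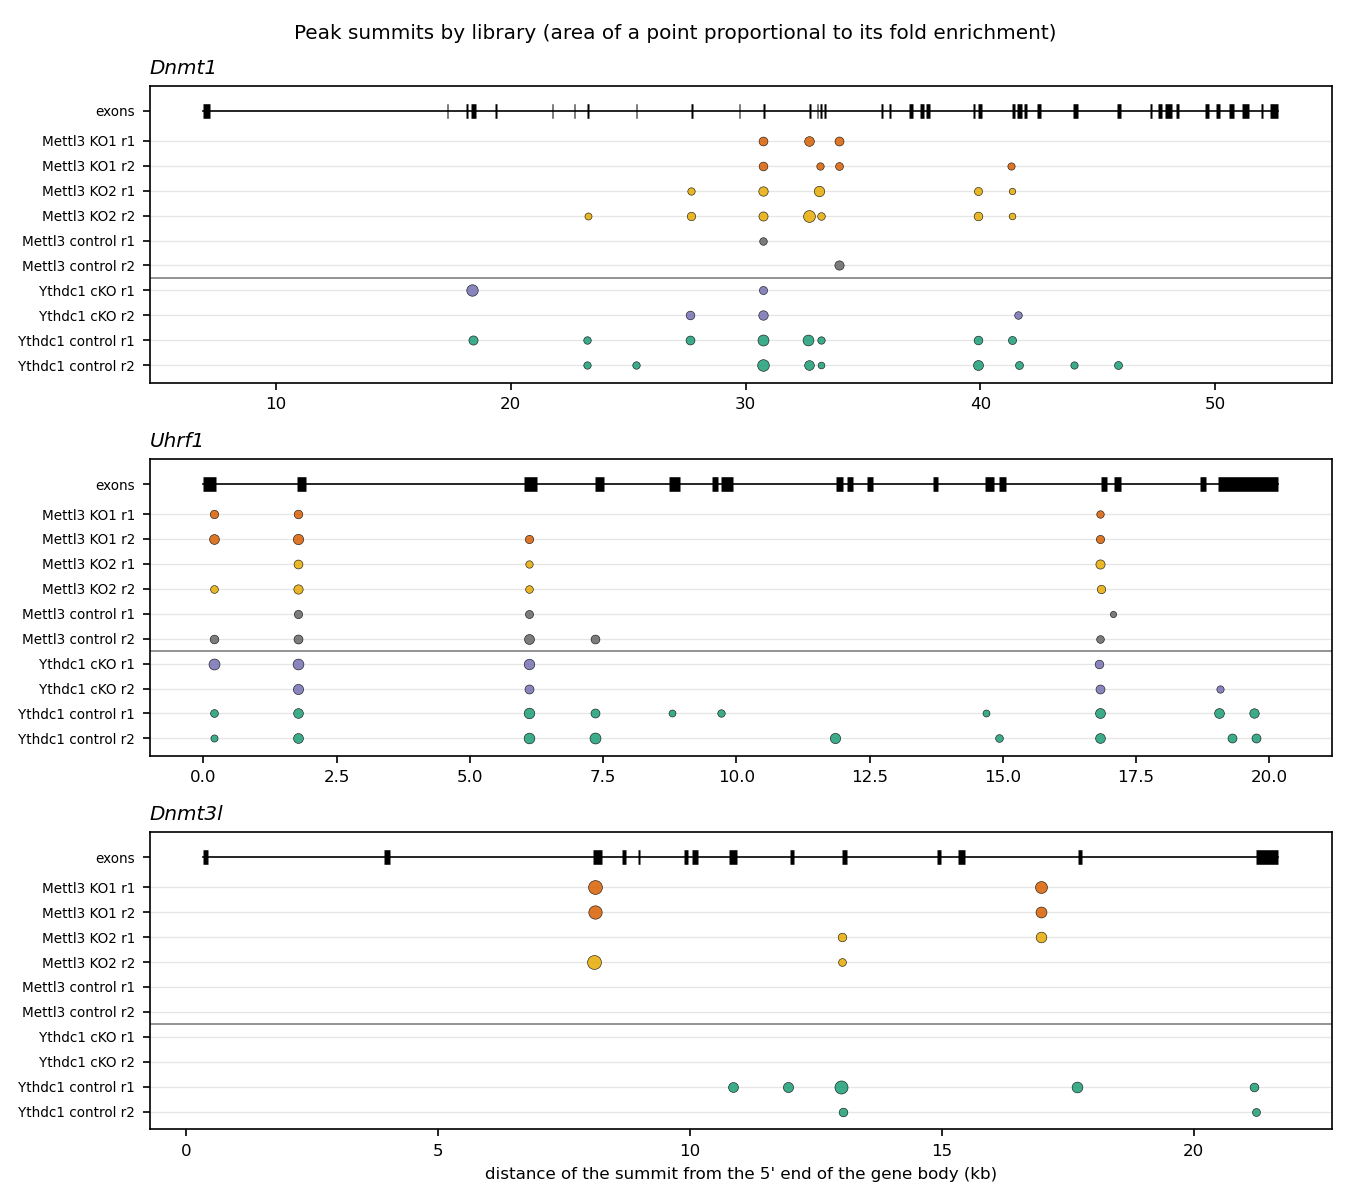
Summits of the m6A peaks of Dnmt1, Uhrf1 and Dnmt3l by distance from the 5′ end of the gene body (horizontal axis, kb) in each library (rows), with the exons of 1 transcript in black; the area of a point is proportional to its fold enrichment. The Ythdc1 control rows hold 8 and 9 points in Dnmt1 and 10 and 9 in Uhrf1, and the cKO rows above them 2 and 3 and 4 and 4; the cKO rows of Dnmt3l are empty.

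Over the 8 genes, the Ythdc1 controls shared 42 regions, and 10 of these had no peak in the cKO (23.8%, against 18% of all gene-body regions), and 27 were kept (64.3%, against 71.8%). Without Ythdc1 control replicate 2 the lost count was 17. The number of genes without overlap, 3, was 5 without cKO replicate 2 or Ythdc1 control replicate 1 and 6 without Ythdc1 control replicate 2. With all libraries, 25.2% of all genes were lower in the cKO without overlap and 12.4% were higher. These shares were not taken with a library left out, where a lack of overlap is easier to reach. The 10 lost regions were 4 in Dnmt1, 3 in Uhrf1, 2 in Dnmt3l and 1 in Tet1.

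In Dnmt1 (chromosome 9, minus strand) the lost regions were region 2 (across an exon edge, 20936583 to 20936741), region 6 (intron, 20927146 to 20927309), region 7 and region 9. Region 6 had the highest single fold, with 4.49 and 3.61 in the Ythdc1 controls, and region 9 had 2.87 and 3.79. Regions 7 and 9 are among those that KO2 gained relative to the Mettl3 controls. One region of Dnmt1 was kept, region 5, with 2.52-fold and 3.44-fold peaks in the cKO against 4.61-fold and 5.20-fold in the Ythdc1 controls. Its strongest region by median fold, region 1 in coding exon 4 (20941443 to 20941617), had a peak in 2 libraries, of 5.03-fold in cKO replicate 1 and 3.21-fold in Ythdc1 control replicate 1.

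In Uhrf1 (chromosome 17, plus strand) the lost regions were region 4 (56310534 to 56310748), region 8 (56317932 to 56318292) and region 11 in the 3′ UTR (56322929 to 56323126). Region 4 had all summits in an intron but reaches into the next exon, and region 8 lay across an exon edge. Region 11, 535 nt past the stop codon in the last exon, had no peak in the cKO against 3.42-fold and 3.10-fold in the Ythdc1 controls, and none in the Mettl3 libraries. Region 4 had 3.07-fold and 4.58-fold peaks there and 2.99-fold in Mettl3 control replicate 2. The kept regions lay towards the 5′ end and near the 3′ end. The one near the 3′ end, region 9, had its summits in introns but covers an exon. Region 2, in exon 2 (56304970 to 56305211), had the highest median of the regions of the gene found in more than 1 library, with 4.48-fold and 4.0-fold peaks in the cKO against 3.62-fold and 3.73-fold in the Ythdc1 controls. Region 7 (56315087 to 56315363), with its summit in an intron and a span that covers an exon, had a single peak, of 4.06-fold, in Ythdc1 control replicate 2.

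In Dnmt3l the lost regions were region 4, with 6.55-fold and 2.88-fold peaks in the Ythdc1 controls, and region 7 (chromosome 10, 78063064 to 78063311, plus strand), with 2.90-fold and 2.41-fold peaks. The other 3 peaks of Ythdc1 control replicate 1 were not found in replicate 2. The 5′ UTR region 1, present in the Mettl3 knockouts, had no peak in any of the 4 Ythdc1 libraries. In Tet1 the lost region was intron region 14 (62827171 to 62827749), with weak peaks of 1.52-fold and 3.18-fold.

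A single region was gained in the cKO, region 11 of Tet2 at an exon edge (chromosome 3, 133483248 to 133483406, minus strand), with 3.86-fold and 4.79-fold peaks in the cKO and none in the Ythdc1 controls. It is 1 of the 29 regions of the 8 genes that both cKO libraries held (3.45%, against 15.6% of all gene-body regions). It also had a 2.88-fold peak in Mettl3 control replicate 2. The gained count was 3 without either cKO library and 2 without Ythdc1 control replicate 2. Tet2 had 10 and 8 peaks in the cKO against 6 and 8, where the groups touched. Tet1 had 11 and 12 peaks against 13 and 12, Tet3 had 3 and 3 against 3 and 4, Dnmt3a had 4 and 3 against 5 and 4, and Dnmt3b had 1 and 1 against 1 and 2. All of these overlapped.

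Of all genes 12.4% had more peaks in both cKO libraries than in either control, and none of the 8 genes was among them. The lower number in the cKO was seen in coding exons and in introns. The 8 genes had 14 and 15 coding exon peaks in the cKO against 22 and 25 in the Ythdc1 controls, and 13 and 13 intron peaks against 23 and 17, by the place of each summit. Regions across an exon edge held 7 and 9 of all these peaks in the cKO against 12 and 12. Over all genes there were 9316 and 9433 coding exon peaks in the cKO against 11974 and 11851 in the controls. Intron peaks over all genes overlapped, with 14172 and 14395 in the cKO against 15145 and 14108. The part of the wider shift in coding exons in the counts of the 8 genes was not tested.

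The de novo methyltransferase Dnmt3a carried a strong region at its stop codon. Region 8 (chromosome 12, 3907530 to 3908171, plus strand) had its summit 10 nt past the stop codon, in a last exon of 6838 nt. Its folds were 15.89 and 11.41 in KO1 and 8.03 and 18.46 in KO2, against 17.49 and 9.98 in the Mettl3 controls, and 12.70 and 12.13 in the cKO against 17.05 and 17.14 in the Ythdc1 controls. The knockouts and controls overlapped in the Mettl3 libraries, and KO2 had both the lowest and the highest value. In the Ythdc1 libraries the cKO folds were below those of the controls, but a fold belongs to its own library and carries no common scale. A second region of Dnmt3a, region 5 in coding exon 7 (3895412 to 3896163), had 3.95-fold and no peak in the cKO against 7.82-fold and 9.78-fold in the Ythdc1 controls. It had 3.77-fold to 4.17-fold peaks in the 4 Mettl3 knockout libraries, and 4.49-fold and no peak in the Mettl3 controls. Region 1, in the 5′ UTR (3835019 to 3835247), had a peak in 9 libraries, all but cKO replicate 2. Its folds were 4.57 and 4.63 in KO1 and 9.05 and 9.49 in KO2, against 5.12 and 5.33 in the Mettl3 controls, so the lines lay on either side of the controls.

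Dnmt3b, the other de novo enzyme, had a single region in all libraries, at its 5′ end (region 1, chromosome 2, 153649471 to 153649731, plus strand). The folds were low, 2.33 and 2.22 in KO1 and 2.03 and 2.47 in KO2, against 3.43 and 3.00 in the Mettl3 controls. They were 2.94 and 3.13 in the cKO and 4.35 and 4.68 in the Ythdc1 controls. In both comparisons every knockout value was below the control values, again without a common scale. No region at the stop codon of Dnmt3b was shared, since region 3 in its last exon had a peak in Ythdc1 control replicate 2 alone, of 2.39-fold.

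Several regions shared by all libraries lay in long exons of the TET genes. Tet3 region 5 (chromosome 6, 83368078 to 83369834, minus strand) had its summit at −621 nt relative to the stop codon. It covered 1748 nt of the last exon, of 1784 nt, of the transcript Tet3-203, past which the gene body runs on. Its folds were 9.19 and 9.50 in KO1 and 17.36 and 18.01 in KO2, against 17.78 and 12.52 in the Mettl3 controls, and 24.54 and 23.42 in the cKO against 12.43 and 11.40 in the Ythdc1 controls. The KO1 values were below the Mettl3 controls and the KO2 values were not, while both cKO values were above the Ythdc1 controls. Tet3 region 1, in coding exon 2 (83454767 to 83455485), had 5.90-fold to 10.79-fold peaks in the Mettl3 knockouts against 8.71-fold and 7.23-fold, and 11.60-fold and 10.81-fold in the cKO against 9.58-fold and 7.30-fold.

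Tet1 and Tet2 showed the same layout. Regions with a peak in all 10 libraries covered the long internal exons 2 (1982 nt) and 4 (2203 nt) of Tet1, exon 3 (3206 nt) of Tet2 and exon 4 (2158 nt) of Tet3. In Tet1 and Tet2, but not in Tet3, peaks on the opposite strand lay over these exons too, in all 10 libraries. In the last exon of Tet2, of 4512 nt, region 14 (chromosome 3, 133466123 to 133468307, minus strand) had its summit at −294 nt relative to the stop codon, and that of region 16 (133464159 to 133464768) lay 2231 nt past it. Region 14 was the strongest of Tet2 and had 5.40-fold and 7.33-fold peaks in KO1 and 5.88-fold and 8.41-fold in KO2, against 7.55-fold and 5.39-fold in the Mettl3 controls. It had 10.10-fold and 9.75-fold peaks in the cKO against 7.66-fold and 4.80-fold in the Ythdc1 controls. The peaks of region 16 were 8.14-fold and 7.93-fold in the cKO against 4.36-fold and 4.12-fold in the Ythdc1 controls. In both regions the cKO values were the higher ones. Tet1 region 15 (62822228 to 62823025), across an exon edge, went the other way, with 2.89-fold and 4.40-fold in the cKO against 5.92-fold and 6.69-fold. The share of all regions whose folds do not overlap between groups was not counted, here or for the regions above.

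The strongest region of Tet1 was not exonic. Region 1 (chromosome 10, 62904869 to 62905497, minus strand) lay in an intron of a longer transcript, at −6210 nt relative to the start of the transcript used here for the exons of the gene. Its folds were 11.97 and 11.84 in KO1 and 10.54 and 16.46 in KO2, against 16.46 and 8.47 in the Mettl3 controls, and 9.88 and 6.39 in the cKO against 9.63 and 12.51 in the Ythdc1 controls. The groups overlapped in both comparisons. Region 1 of Tet2 (133544028 to 133544960) likewise had its summit at −23 nt relative to the start of such a transcript, with peaks of 3.32-fold to 8.45-fold in all 10 libraries. Its cKO folds of 4.16 and 5.14 were below the 6.89 and 8.45 of the Ythdc1 controls. Tet1 region 11 (62833545 to 62833764) held 5.90-fold to 8.84-fold peaks in all 10 libraries. Its summits were in an intron, but its span takes in most of the next exon.

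**Figure D4:**
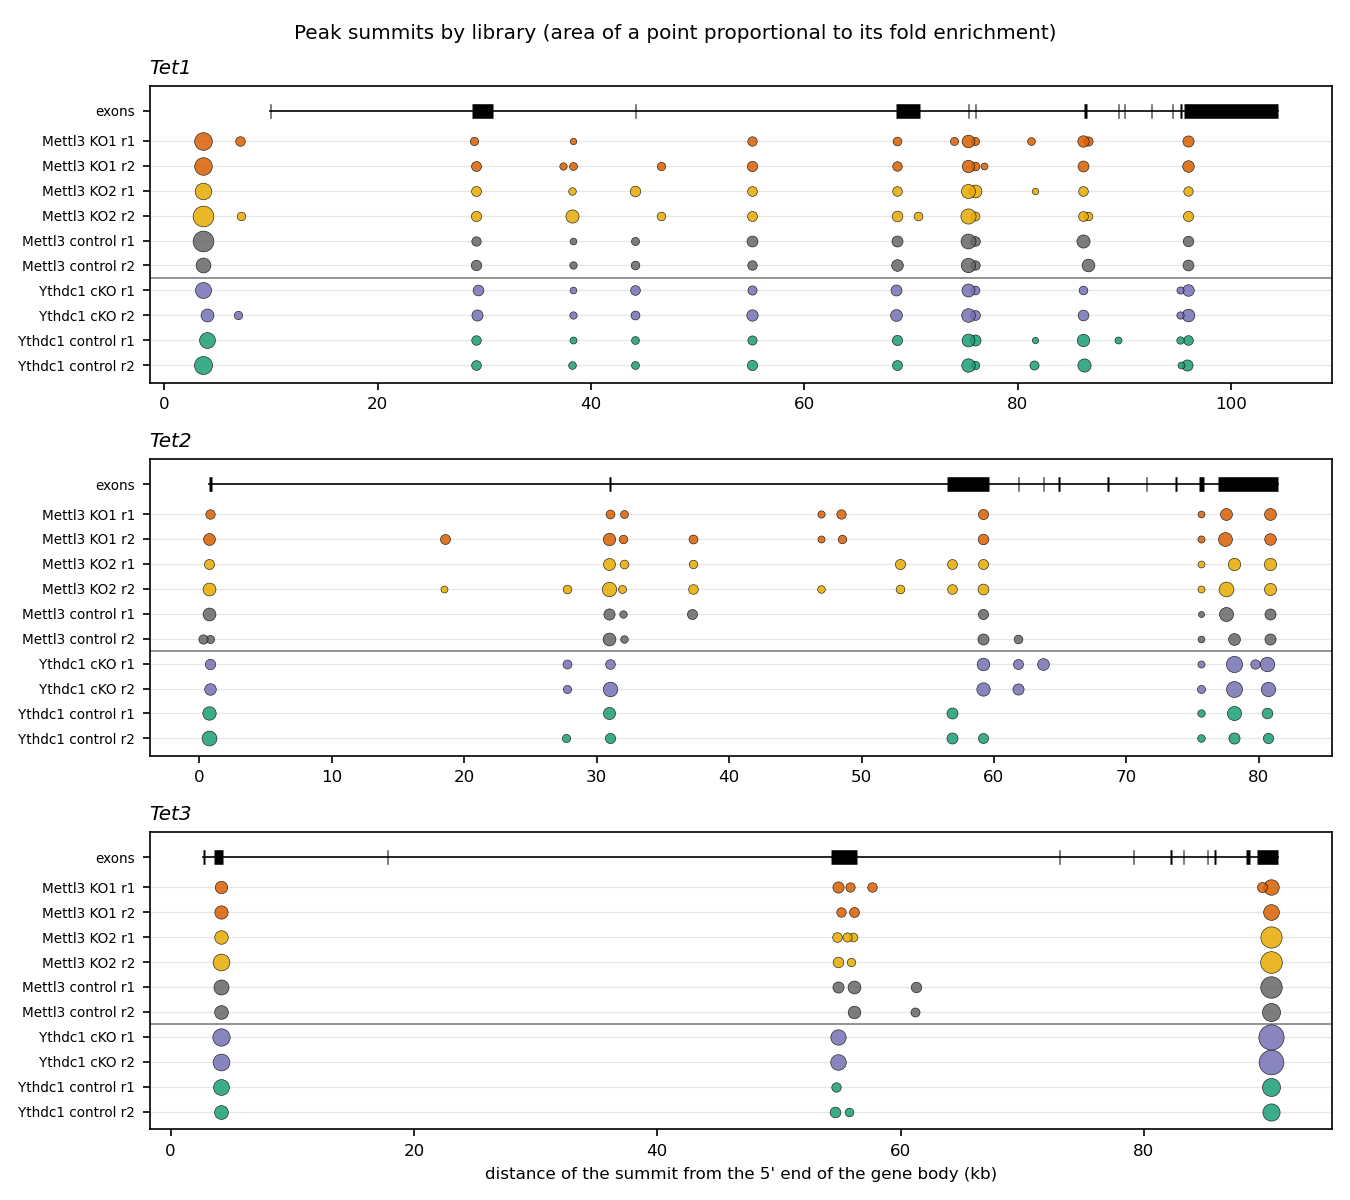
Summits of the m6A peaks of Tet1, Tet2 and Tet3 by distance from the 5′ end of the gene body (horizontal axis, kb) in each library (rows), with the exons of 1 transcript in black; the area of a point is proportional to its fold enrichment. Columns of points run through all 10 rows over the long exons and at the 5′ ends, and the largest points are those of the last exon of Tet3, at 24.54-fold and 23.42-fold in the cKO.

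Other genes of the DNA methylation pathway were counted in the same way. Of the 41 genes in the list, 37 held a peak and 26 held one in every library. Among those without a peak were Neil1, Cxxc4 and Trim28. In the Mettl3 comparison 6 of 79 control regions were lost (7.59%, against 8.96% of all gene-body regions) and 58 were kept (73.4%, against 64.8%). The lost ones belonged to the methyl-CpG readers Zbtb4 and Zbtb38, the DNA glycosylase Neil2, the glycosyltransferase Ogt, which binds TET proteins and lost 2, and the cytidine deaminase Apobec1. The 2 gained regions of 66 (3.03%, against 4.31% of all gene-body regions) were in Tdg, the glycosylase that removes oxidised methylcytosine, and in Lig1, the replicative DNA ligase. Lig1 had 6 and 8 peaks in KO1 and 9 and 10 in KO2, against 3 and 4 in the Mettl3 controls. More peaks in every knockout library than in any control were seen in 5.02% of all genes.

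In the Ythdc1 comparison 21 of 104 control regions of the list were lost (20.2%, against 18%), 68 were kept (65.4%, against 71.8%) and 5 of 78 were gained (6.41%, against 15.6%). The lost regions were spread over 13 genes. Lig1 lost 3, with 5 and 6 peaks in the cKO against 10 and 10, and Ahcy, which hydrolyses the product of methyl transfer, lost 3, with 0 and 0 peaks against 3 and 4. Tdg lost 2, with 1 and 0 peaks against 4 and 3, and the others that lost 2 were Usp7, the deubiquitinase that binds DNMT1, Mbd2 and Dppa2. Fewer peaks in both cKO libraries than in either control, as in Lig1, Ahcy and Tdg, were seen in 25.2% of all genes. Mbd1, Zbtb38, Uhrf2, Prdm14, Zfp445, Mat2a and Mat2b lost 1 each. The gained regions were in Usp7 (2), Apobec1 (1) and Kdm2b (2), which binds unmethylated CpG through its CXXC domain. Kdm2b had 6 regions with a peak in all 10 libraries, and Mbd4, Usp7, Dppa4 and Zfp445 were among those with 3.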

How the data were processed

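The deposited files are narrowPeak lists, 1 per immunoprecipitated library, whose peak names carry a library and a strand. The submitters' processing notes list MACS2, HISAT2 2.1.0, Trimmomatic 0.38, CASAVA and the build mm10. For each peak the authors deposited a display score, the fold enrichment at the summit (a ratio) and the −log10 of the p-value and q-value. The narrowest peaks span 150 bp and the lowest −log10 q is 2.000. Folds only describe and rank the peaks of a library. How MACS2 was run, and whether with the inputs, is not given in the sources used here.

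Peaks on assembled chromosomes and the mitochondrial genome were assigned with GENCODE M21 (Python 3.11.15, numpy 2.4.6). Peaks of a comparison that overlapped by at least 1 bp on a strand were merged into regions; regions numbered per gene were merged over all 10 libraries. Lost, kept and gained are calls over all libraries of a comparison, with KO1 and KO2 also set singly against the shared control. Summits were classed within their gene, with a 3′ UTR taken before a coding exon, a 5′ UTR and an intron, and a region takes the class of its strongest peak's summit. Peak numbers were compared by exact two-sided permutation tests over libraries, with Benjamini-Hochberg adjustment over all genes with a peak. The code of the region calls was run on simulated peak lists in which no peak was missed, split or fused. That run says nothing of such cases in the real lists. Named were all 8 genes, their lost and gained regions and their strongest region by median fold, and list genes with a lost or gained region or the most shared regions, a few of which are not reported here; regions beyond this rule were chosen after their values were seen. The 8 genes and the lists were chosen with earlier results of these data known. No genome sequence was used, so introns were not searched for motifs.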

Additional observations from a re-analysis of the deposited data

Results flagged for a closer look

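The number of peaks in Dnmt1 and in Dnmt3l moved in opposite directions in the knockouts of the writer and of the reader. For Dnmt1 the difference between knockout and control means was 3.75 peaks in the Mettl3 comparison and −6 in the Ythdc1 comparison. For Dnmt3l it was 2 and −3.5. In both genes every Mettl3 knockout library was above its controls and every cKO library below its controls. Of all genes 5.02% were above in every Mettl3 knockout library and 25.2% were below in every cKO library. The share of genes with both was not counted. The difference between the comparisons was not tested. The controls themselves were far apart, with 1 and 1 peaks of Dnmt1 in the Mettl3 controls against 8 and 9 in the Ythdc1 controls, and 0 and 0 peaks of Dnmt3l against 5 and 2.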

How the results depend on the processing

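Peak lists hold no read counts, so depth could not be set equal; most peaks of Dnmt1, Uhrf1 and Dnmt3b lie low in their lists. A −log10 q of at least 5, merging at an overlap of 0.5 of the shorter peak, merging all 10 libraries once and any overlap with the gene body left every count of regions within 1.5 times. Peaks of at least 3-fold gave 2 lost and 15 kept regions in the Mettl3 comparison, 2 gained in KO1, 1 gained in KO2, and 4 lost, 2 gained and 17 kept in the Ythdc1 comparison; the differences of Uhrf1 and Tet3 in the Mettl3 comparison then reversed to 0.25 and −0.25. Asking for 3 of the 4 Mettl3 knockout libraries gave 3 lost and 5 gained. Equal lists of 40959 peaks, chosen after seeing the data, gave 0 lost in the Mettl3 comparison, 1 in KO1 and 0 in KO2. Without 1 library at a time, Mettl3 lost, gained and kept regions ranged over 1 to 4, 0 to 2 and 25 to 27, KO1 lost and gained over 2 to 5 and 6 to 10, KO2 over 2 to 6 and 6 to 14, and Ythdc1 lost, gained and kept over 12 to 17, 1 to 3 and 27 to 30. Genes without overlap numbered 3 to 4 (Mettl3) and 4 to 6 (Ythdc1). The differences that changed sign in the Mettl3 comparison ranged from −1.5 to 0.5 in Uhrf1, −0.333 to 0.667 in Dnmt3a and −0.25 to 0.75 in Tet3 (−0.167 without KO1 replicate 1). The cause was not tested. Leaving out a library loosens each call, since fewer libraries must match.

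Replicate numbers did not pair the libraries. Deviations of same-numbered libraries correlated at 0.0133 to 0.0323 over 14613 genes in the Mettl3 groups and at −0.0194 in the Ythdc1 groups. With replicate number as a block the exact permutation p was 0.222 for Dnmt1 and 0.111 for Dnmt3l in the Mettl3 comparison and 0.5 for Dnmt1 in the Ythdc1 comparison, with differences of 3.75, 2 and −6.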

Other observations

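Peaks on the strand opposite to the gene were found in Tet1 (4 to 6 per library) and Tet2 (3 or 4 per library) in all 10 libraries, at places where the annotation has no gene on that strand. Of these 87 peaks, 82 overlapped a peak of the same library on the gene's own strand. The strongest lay in exon 11 of Tet2 (chromosome 3, 133466959 to 133467706, plus strand). It had 12.50-fold and 10.63-fold peaks in KO1, 11.39-fold and 12.25-fold in KO2, 12.71-fold and 12.32-fold in the Mettl3 controls, 11.75-fold and 11.05-fold in the cKO, and 11.72-fold and 11.09-fold in the Ythdc1 controls. These folds varied less than those of region 14 on the gene's own strand, which ran from 4.80 to 10.10. In Tet1 such regions lay in exons 2, 4 and 13. Over the 8 genes, 51 of 163 coding exon peaks overlapped a peak on the other strand (31.3%), against 7.24% of the 96616 coding exon peaks of all genes. There were 5 in each library, except for 6 in Ythdc1 control replicate 2. The 51 thus count recurring regions of Tet1 and Tet2 anew in each library, and the share is not a trait of all 8 genes. The source of these peaks was not tested. Dnmt1, Dnmt3a, Dnmt3b and Tet3 had no peak on the opposite strand. Those in Dnmt3l lay in Aire, a gene on that strand, and Uhrf1 had 1 at its 5′ end in 4 libraries.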
